A study of Mus musculus with 18 samples.

Results

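Complement in the retina was described through 9 genes that encode its activation components and the receptors for their fragments, namely C1qa, C1qb, C1qc, C4b, C2, Cfb, C3, C3ar1 and C5ar1. They were taken by name from a table of 23420 gene symbols, and all 9 had a row. Of the 9, 8 passed the filter on low counts and were tested among 15196 genes, and C5ar1 did not pass. Whole retinas of 9 individual wt Balb/cJ mice were profiled by RNA sequencing, with 3 mice in each of 3 groups and 2 sequencing runs per mouse. Naïve mice had no light exposure and no treatment. Vehicle-treated mice were exposed to bright white light of 15000 lux for 1 h, received intraperitoneal injections of the vehicle, and were analysed 4 days after the light. TD139-treated mice had the same light and the same time point, and received TD139, a small-molecule inhibitor of galectin-3, at 15 mg/kg. The injections were given daily from the day before the light, and the mice, of an albino strain sensitive to light, were 8 to 10 weeks old and of both sexes. No group was treated with TD139 without light, and no group had light without an injection, so that light and injection cannot be told apart in vehicle-treated mice.

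Complement is a cascade of plasma and tissue proteins that marks debris, synapses and microbes for removal. The classical pathway starts when C1q binds a surface and its proteases cleave C4 and C2, and the alternative pathway builds its own C3-cleaving enzyme from C3 and factor B. Both routes cleave C3, whose small fragment C3a is sensed by C3ar1, and then C5, whose fragment C5a is sensed by C5ar1. In the retina C1q is made mainly by microglia, the resident macrophages of nervous tissue, whereas C3 and C4 can also come from glia and the pigment epithelium.

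Each mouse had between 26171887 and 30201517 reads on genes. Levels are CPM, the reads of a gene relative to the library size scaled by the TMM factors of edgeR, which do not allow for the length of a gene. A count of 3 in a mouse corresponded to 0.101 to 0.119 CPM. Of 6 rod marker genes all were expressed, with a summed level of 38250 to 75066 CPM over the 9 mice. Vehicle-treated mouse 2 stood apart in lens markers, whose 4 genes summed to 6383 CPM there and to 2.22 and 7.11 CPM in the other vehicle-treated mice. They summed to 264, 169 and 76.5 CPM in naïve mice 1 to 3 and to 6.19, 0.139 and 204 CPM in TD139-treated mice 1 to 3. TD139-treated mouse 1 stood apart in the complement genes themselves. Tests are therefore also given without vehicle-treated mouse 2 and without TD139-treated mouse 1.

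At 4 days after light, 7 of the 8 tested complement genes had higher levels in every vehicle-treated mouse than in any naïve mouse, and the same 7 were below every vehicle-treated mouse in each mouse given TD139. The 7 were the C1q genes, C4b, Cfb, C3 and C3ar1. Over all 15196 genes tested, 16.7% separated the vehicle-treated mice upward from the naïve mice in this way, and 25.4% separated the TD139-treated mice downward from the vehicle-treated mice. C2 was the tested gene whose groups overlapped in both comparisons. Because whole retinas were measured, a change in the number of cells that make a transcript and a change in the RNA per cell cannot be told apart.

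**Figure D1:**
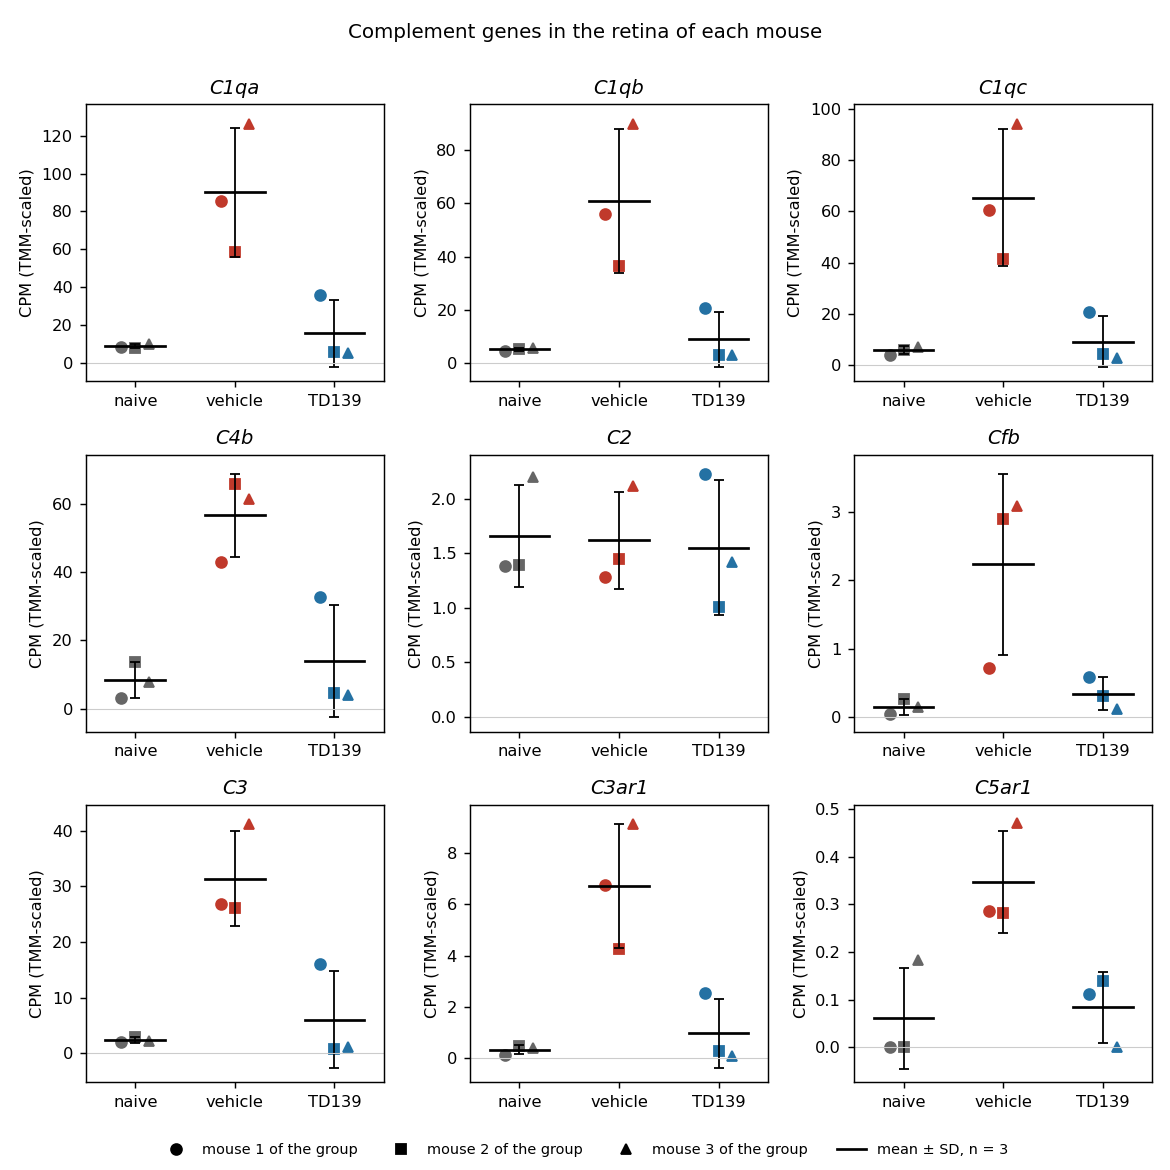
Level of each complement gene in each mouse, in TMM-scaled CPM on a linear axis of its own, with symbols for mouse 1, 2 and 3 of each group and bars for the mean ± SD of 3 mice. In all panels but C2 the vehicle-treated mice lie above the naïve mice, and the TD139-treated mouse 1 (circle) lies above the naïve mice in all panels but C5ar1.

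C1qa, C1qb and C1qc encode the 3 chains that assemble into C1q. The genes lie together on chromosome 4, all on the minus strand and in the order C1qb, C1qc, C1qa, within 18.7 kb (chr4:136880129-136898803, GRCm38). C1qa had 8.72, 8.29 and 10.2 CPM in naïve mice 1 to 3, against 85.4, 58.4 and 126 CPM in vehicle-treated mice 1 to 3 and 36.1, 5.85 and 5.41 CPM in TD139-treated mice 1 to 3. C1qb had 4.65, 5.20 and 5.79 CPM in naïve, 55.8, 36.6 and 89.9 CPM in vehicle-treated, and 20.8, 2.92 and 2.96 CPM in TD139-treated mice. C1qc had 4.07, 5.95 and 7.22 CPM in naïve, 60.5, 41.5 and 94.1 CPM in vehicle-treated, and 20.5, 4.18 and 2.85 CPM in TD139-treated mice. All 3 genes were highest in vehicle-treated mouse 3 and lowest within that group in mouse 2. Among the TD139-treated mice, mouse 1 was above all naïve mice for each chain, whereas mouse 3 was below all naïve mice for each chain and mouse 2 was below them for C1qa and C1qb.

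The difference between vehicle-treated and naïve mice was 9.92-fold for C1qa (log2 fold change 3.31 ± 0.82 SE, edgeR adjusted p = 0.0605). It was 11.6-fold for C1qb (log2 fold change 3.54 ± 0.87 SE, adjusted p = 0.0581) and 11.4-fold for C1qc (3.50 ± 0.81 SE, adjusted p = 0.0507), so that none of the 3 chains passed the threshold of 0.05 with all 9 mice. Against vehicle, TD139-treated mice were lower by 7.11-fold for C1qc (log2 fold change -2.83 ± 0.78 SE, edgeR adjusted p = 0.0337) and by 6.83-fold for C1qb (-2.77 ± 0.83 SE, adjusted p = 0.0440). Both genes passed. Neither passed with a length and GC offset, with a replicate block or in a fit of only the 2 groups. In the last the edgeR adjusted p was 0.106 for C1qb and 0.0832 for C1qc. C1qa was 5.70-fold lower (-2.51 ± 0.79 SE, adjusted p = 0.0508) and missed the threshold narrowly. It passed with limma voom (log2 fold change -3.55, adjusted p = 0.000451) and with DESeq2 (-2.51, adjusted p = 0.00439). Without vehicle-treated mouse 2, C1qc passed against vehicle (adjusted p = 0.0438), whereas C1qb (adjusted p = 0.0526) and C1qa (adjusted p = 0.0625) did not. In that fit none of the chains passed for vehicle against naïve, with adjusted p-values of 0.0702 for C1qa, 0.0653 for C1qb and 0.0587 for C1qc. Without TD139-treated mouse 1, all 3 chains passed in both comparisons, with log2 fold changes against vehicle of -4.00 for C1qa, -4.37 for C1qb and -4.21 for C1qc. Over the fits that left out 1 of the 9 mice, the edgeR adjusted p for TD139 against vehicle ran from 0.000346 to 0.115 for C1qb and from 0.000732 to 0.109 for C1qc.

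The 3 chains kept close proportions in vehicle-treated mice. The counts of C1qb per count of C1qc were 0.924, 0.882 and 0.955 in vehicle-treated mice 1 to 3, within the range of 0.803 to 1.14 in naïve mice, and 1.01, 0.701 and 1.04 in TD139-treated mice. The counts of C1qa per count of C1qc were 1.34 to 1.41 in vehicle-treated mice, 1.39 to 2.14 in naïve mice and 1.40 to 1.90 in TD139-treated mice. The groups overlapped for both ratios. Over the 9 mice the log2 levels of C1qa and C1qb had a Pearson r of 0.999, and their deviations from the group means had an r of 0.996, as a description of points that share libraries and groups.

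The stretches before the start sites of C1qb and C1qc are shown because both genes moved together in these mice and because letters of the PU.1 type occur in both. PU.1 is a transcription factor of macrophages and microglia that binds sites with a GGAA core. The sequences are from RefSeq on GRCm38.p6, minus strand, and read 5′ to 3′ towards the start site, at chr4:136886201-136886450 for C1qb and chr4:136893066-136893164 for C1qc. The stretch for C1qc stops where its GENCODE transcript begins, ahead of the RefSeq start, and is 99 bases long. Capitals mark the letters GGAAGT read on the opposite strand (ACTTCC), which begin 53 bases before the RefSeq start of C1qb and 195 bases before that of C1qc.
C1qb: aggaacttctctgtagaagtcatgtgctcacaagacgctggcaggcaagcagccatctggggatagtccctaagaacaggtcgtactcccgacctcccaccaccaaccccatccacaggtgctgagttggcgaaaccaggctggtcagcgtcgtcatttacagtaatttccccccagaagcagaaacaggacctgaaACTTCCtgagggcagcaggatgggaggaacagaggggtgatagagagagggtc
C1qc: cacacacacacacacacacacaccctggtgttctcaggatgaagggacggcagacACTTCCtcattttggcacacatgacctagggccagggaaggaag
Of the 9 genes, 5 had an entry in the set of promoter sequences used here, namely C1qb, C1qc, C3, C3ar1 and C5ar1. GGAAGT, searched on both strands in the 250 bases before the start, was in 3 of these 5, C1qb, C1qc and C5ar1, and in 19.7% of 32851 windows of the same length over all genes. An interferon-response motif of 10 letters was in 2.98% of all windows, GGGANTTCC of the NF-kappaB type in 1.43% and TTCNNNGAA of the STAT type in 7.02%, and in 0 of the 5 windows of complement genes each. Matches of 6 to 10 letters are descriptions of these windows and not binding sites.

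C4b and C2 provide the parts of the classical and lectin C3 convertase. C4b, which encodes mouse complement C4, had 3.30, 13.8 and 7.81 CPM in naïve, 42.9, 65.7 and 61.3 CPM in vehicle-treated, and 32.8, 4.63 and 4.19 CPM in TD139-treated mice. The naïve mice already spread 4.17-fold, and TD139-treated mouse 1 lay between the naïve and the vehicle-treated mice. The difference of vehicle-treated from naïve mice was 6.82-fold (log2 fold change 2.77 ± 0.95 SE, edgeR adjusted p = 0.123), and that of TD139-treated from vehicle-treated mice was 4.08-fold downward (-2.03 ± 0.92 SE, adjusted p = 0.132). Neither passed. Without vehicle-treated mouse 2 neither passed (edgeR adjusted p = 0.190 and 0.221), and without TD139-treated mouse 1 both passed, with an edgeR adjusted p of 0.0176 and 0.00550, and the difference from vehicle was 12.8-fold downward (log2 fold change -3.68). For vehicle against naïve the log2 fold change was 3.36 without naïve mouse 2 (adjusted p = 0.192) and 2.40 without naïve mouse 1 (adjusted p = 0.225).

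C4b shares much of its sequence with C4a, a neighbouring copy, and 35.2% of the 50-base windows of the C4b transcript were identical in C4a, so that reads there could be assigned to either gene or to none. C4a had 2.61 to 3.28 CPM in naïve, 3.07 to 4.50 CPM in vehicle-treated and 1.95 to 2.82 CPM in TD139-treated mice. Its log2 fold change was 0.47 ± 0.25 SE for vehicle against naïve (edgeR adjusted p = 0.247) and -0.68 ± 0.25 SE for TD139 against vehicle (adjusted p = 0.0550). Whether the 2 copies differed in their change was not tested, and the counts of both remain uncertain to the extent that their reads were not told apart.

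C2 encodes the protease subunit that joins C4b. It had 1.38, 1.39 and 2.20 CPM in naïve, 1.29, 1.45 and 2.12 CPM in vehicle-treated, and 2.22, 1.01 and 1.42 CPM in TD139-treated mice. The ranges of the 3 groups overlapped, on 29 to 63 counts per mouse. The log2 fold change of vehicle against naïve was -0.04 ± 0.36 SE (edgeR adjusted p = 0.960), with an approximate 95% interval of -0.75 to 0.68, and that of TD139 against vehicle was -0.06 ± 0.37 SE (adjusted p = 0.909), with an interval of -0.78 to 0.66. C2 did not pass in either comparison without vehicle-treated mouse 2 or without TD139-treated mouse 1. No difference was detectable at this depth, and these intervals leave out changes of the size seen for the C1q genes.

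Cfb, which encodes factor B, the counterpart of C2 in the alternative pathway, is the direct neighbour of C2. Both lie on the minus strand of chromosome 17 with 85 bases between them (0.085 kb, Cfb at chr17:34856374-34862518 and C2 at chr17:34862604-34898265), inside a stretch of 170 kb that also holds C4b and C4a. Cfb had 1, 7 and 4 counts in naïve, 20, 82 and 92 counts in vehicle-treated, and 16, 9 and 3 counts in TD139-treated mice. These are levels of 0.0384, 0.264 and 0.147 CPM, of 0.715, 2.90 and 3.09 CPM, and of 0.593, 0.313 and 0.119 CPM. The 3 naïve mice were low without exception, and vehicle-treated mouse 1 was well below the other two of its group and just above TD139-treated mouse 1.

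Cfb rose 14.5-fold in vehicle-treated mice (log2 fold change 3.86 ± 0.76 SE, edgeR adjusted p = 0.0216) and was 6.44-fold lower with TD139 than with vehicle (-2.69 ± 0.68 SE, adjusted p = 0.0144). It passed in both comparisons also without vehicle-treated mouse 2 (adjusted p = 0.0342 and 0.0379) and without TD139-treated mouse 1 (adjusted p = 0.00759 and 0.00934). It did not pass for vehicle against naïve when any 1 naïve mouse or vehicle-treated mouse 3 was left out, nor for TD139 against vehicle without vehicle-treated mouse 3 or TD139-treated mouse 2 or 3, with adjusted p-values of up to 0.0736 and 0.0690. Since the fold rests on 1 to 7 counts in naïve mice, it was 23.1-fold without naïve mouse 2 (log2 fold change 4.53) and 10.8-fold without naïve mouse 1 (3.43). The difference of TD139 from vehicle was 10.02-fold downward without TD139-treated mouse 1 (-3.32). The counts of C2 per count of Cfb, with 0.5 added to both, were 24.3, 5 and 13.4 in naïve, 1.78, 0.503 and 0.686 in vehicle-treated, and 3.67, 3.11 and 10.4 in TD139-treated mice. The vehicle-treated mice lay below both other groups without overlap (exact permutation test, two-sided, p = 0.1 for each, the smallest that 3 against 3 mice allow, and 0.3 after Benjamini-Hochberg adjustment over 42 tests of ratios).

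C3, the component on which both pathways converge, lies on the same chromosome as Cfb and C2 but 22306 kb away (chr17:57203970-57228136). Its level was 1.96, 2.98 and 2.20 CPM in naïve, 26.8, 26.1 and 41.3 CPM in vehicle-treated, and 16.1, 0.870 and 1.15 CPM in TD139-treated mice. The vehicle-treated mice were all far above the naïve mice, whereas within the TD139 group mouse 1 had 18.5 times the level of mouse 2, and mice 2 and 3 were below all naïve mice. The log2 fold change was 3.72 ± 1.14 SE for vehicle against naïve (13.2-fold, edgeR adjusted p = 0.0941) and -2.38 ± 1.06 SE for TD139 against vehicle (5.21-fold lower, adjusted p = 0.125), and neither passed. Without vehicle-treated mouse 2 they were 3.84 (adjusted p = 0.126) and -2.50 (adjusted p = 0.165), and neither passed. Without TD139-treated mouse 1 they were 3.73 (adjusted p = 8.68e-05) and -4.96 (adjusted p = 4.74e-05).

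C3ar1 encodes the G protein-coupled receptor for C3a and C5ar1 that for C5a, both carried by microglia and other myeloid cells. C3ar1 had 3, 12 and 10 counts in naïve, 189, 121 and 272 counts in vehicle-treated, and 68, 8 and 2 counts in TD139-treated mice, or 0.115 to 0.452 CPM, 4.27 to 9.14 CPM and 0.0790 to 2.52 CPM. Every vehicle-treated mouse was above every mouse of the other groups. C3ar1 rose 21.2-fold in vehicle-treated mice (log2 fold change 4.41 ± 1.06 SE, edgeR adjusted p = 0.0438), the largest of the 8 tested genes. Against vehicle it was 6.97-fold lower with TD139 (-2.80 ± 0.94 SE, adjusted p = 0.0505), which missed the threshold. Without TD139-treated mouse 1 the difference was -5.17 (adjusted p = 0.000516). Without vehicle-treated mouse 2 the adjusted p was 0.0462 for vehicle against naïve and 0.0532 for TD139 against vehicle, and over all fits that left out 1 mouse the former ran from 0.000909 to 0.132.

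C5ar1 was near the limit of detection. It had 0, 0 and 5 counts in naïve, 8, 8 and 14 counts in vehicle-treated, and 3, 4 and 0 counts in TD139-treated mice, in total 5, 30 and 7. The vehicle-treated mice were above all other mice, at 0.283 to 0.470 CPM. A count of 0 allows up to 3 counts. The gene did not pass the filter on low counts, and in the edgeR fit without that filter it was tested and not called (adjusted p = 0.217 for vehicle against naïve, 0.196 for TD139 against vehicle and 0.882 for TD139 against naïve).

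Of the 8 tested genes, 2 rose in vehicle-treated mice at an edgeR adjusted p under 0.05, Cfb and C3ar1, and 4.91% of all genes tested rose by this rule. Both also met the study's fold change limit of 2 on the log2 scale, which 1.24% of all genes met together with the adjusted p. A log2 fold change of at least 2 whatever the p was shown by 7 of the 8, and by 2.22% of all genes. None of the 8 fell, and none of the 8 was lower at an unadjusted p under 0.05 by edgeR or limma, nor any of the 7 to which DESeq2 gave a p, all but C3. With TD139 against vehicle, 3 of the 8 fell, C1qb, C1qc and Cfb, and 16.2% of all genes fell by this rule. All 3 met the fold change limit, as did 1.53% of all genes. A log2 fold change of -2 or less whatever the p was shown by 7 of the 8, and by 2.3% of all genes. The median log2 fold change of the 8 was 3.52 for vehicle against naïve and -2.60 for TD139 against vehicle, and over all tested genes it was -0.00175 and -0.0164. Read assignment moved with the groups as well. Reads with no feature made up 21.3 to 22.8% with TD139, against 16.5 to 19.4% with vehicle and 19.1 to 19.9% in naïve mice, so that the TD139 group lay above both others without overlap. Ambiguous reads made up 0.303 to 0.363% with TD139, 0.417 to 0.471% with vehicle and 0.374 to 0.402% in naïve mice, with no overlap between any of the groups. The part of these differences in the complement results was not tested.

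**Figure D2:**
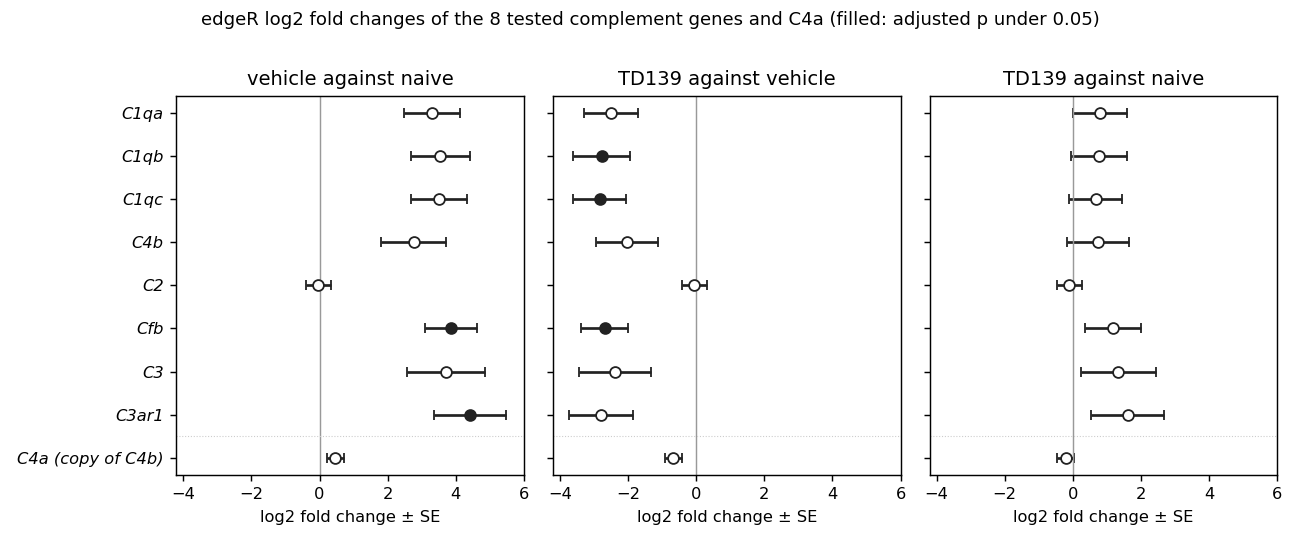
Log2 fold change ± SE of the 8 tested complement genes and of C4a in the 3 comparisons, from edgeR with 9 mice, with filled symbols for an adjusted p under 0.05. Of the 8, C2 lies near 0 in each panel, and the other genes lie between 2.77 and 4.41 for vehicle against naïve and between -2.83 and -2.03 for TD139 against vehicle.

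In TD139-treated against naïve mice 0 of the 8 tested genes passed by edgeR, and 2.72% of all genes were higher and 2.38% lower. At an unadjusted p under 0.05 the count was also 0 of 8, and limma called 0 of 8 and DESeq2 0 of the 7 to which it gave a p, all but C3. Of all genes, limma called 19.7% higher and 16.3% lower, and DESeq2 9.40% higher and 7.61% lower. For the 8 genes, the log2 fold changes ran from -0.10 for C2 to 1.61 ± 1.07 SE for C3ar1 (edgeR adjusted p = 0.354), and their approximate 95% intervals were wide, from -0.74 to 2.34 for C1qa and from -0.80 to 3.47 for C3. These values do not show that the levels were alike, since the group was split. TD139-treated mouse 1 was above all naïve mice for 8 of the 9 genes, mouse 2 for 1 gene (Cfb) and mouse 3 for 0, whereas mouse 2 was below all naïve mice for 4 genes (C1qa, C1qb, C2 and C3) and mouse 3 for 5 (C1qa, C1qb, C1qc, C3 and C3ar1).

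For the 7 genes without overlap between groups, TD139-treated mouse 1 had 26.5 to 57.9% of the vehicle mean, mouse 2 had 2.77 to 14.02% and mouse 3 had 1.18 to 7.40%. With mouse 1 left out, 7 of 8 genes passed for vehicle against naïve and 7 of 8 for TD139 against vehicle. Of all genes, 7.56% were then called higher in the former comparison and 19.0% lower in the latter. In that fit 7 of the 8 log2 fold changes of TD139 against naïve were negative, with a median of -0.72. This mouse was singled out by its levels of these same genes, so the fits without it, here and above, describe its weight and are no independent support for a call. Mouse 1 was not left out of the values above because nothing in the labels sets it apart, and what made it differ was not tested. The summed level of 5 microglia markers was also higher in it, at 33.2 CPM against 14.3 and 12.5 CPM in the other TD139-treated mice. So were the sums of the markers of leukocytes and myeloid cells (40.9 against 6.47 and 7.11 CPM), reactive glia (355 against 160 and 187 CPM), astrocytes (60.7 against 24.4 and 30.5 CPM), endothelium (443 against 214 and 212 CPM), Müller glia (6484 against 4960 and 5039 CPM) and pigment epithelium (119 against 72.4 and 79.3 CPM). The rod marker sum was lower in it, at 54575 against 68019 and 61530 CPM.

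**Figure D3:**
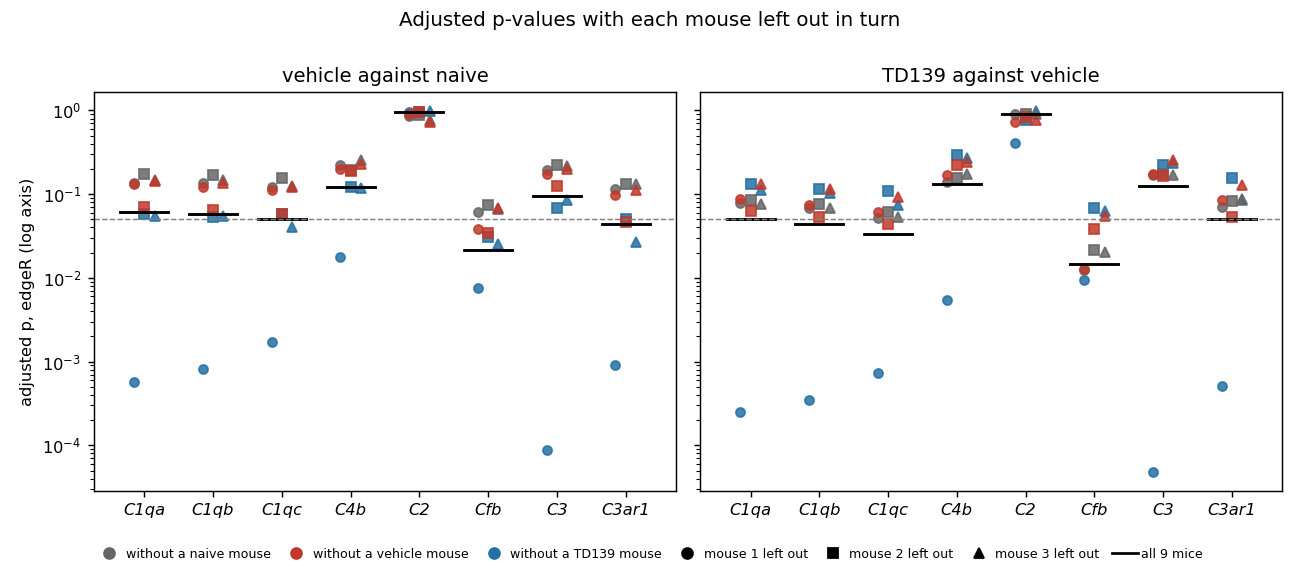
Adjusted p-values from edgeR on a log axis for 8 complement genes, with all 9 mice (black line) and with each mouse left out (colour for its group, symbol for its number), and a dashed line at 0.05. The blue circles, for the fits without TD139-treated mouse 1, lie lowest for 7 of the 8 genes in vehicle against naïve and lowest for all 8 in TD139 against vehicle.

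Between genes, levels were compared per kb of transcript, using the longest protein-coding transcript. In naïve mice C1qa led with 8.72 ± 0.957 CPM per kb (SD, n = 3), followed by C1qb with 4.79 ± 0.525 and C1qc with 4.78 ± 1.32, which overlapped each other. C4b with 1.54 ± 0.978 overlapped C2 with 0.628 ± 0.177, and C2 overlapped C3 with 0.463 ± 0.104. C3ar1 (0.0723), Cfb (0.0544) and C5ar1 (0.0241) were lowest and not separated from their neighbours among these 3.

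In vehicle-treated mice the C1q genes remained at the top, with 86.6 ± 32.8 CPM per kb for C1qa (SD, n = 3), 55.8 ± 24.8 for C1qb and 54.3 ± 22.2 for C1qc, each overlapping the next. C4b followed with 10.5 ± 2.26 and C3 with 6.11 ± 1.67, which overlapped. C3ar1 (1.56 ± 0.565) and Cfb (0.812 ± 0.480) overlapped as well, and so did Cfb and C2. C2, the fifth of the 9 genes in naïve mice, was the eighth in vehicle-treated mice with 0.612 ± 0.167 CPM per kb, above only C5ar1 with 0.136 ± 0.0423.

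Most markers of microglia, myeloid cells and reactive glia moved along with these genes, and most rod markers were lower with vehicle. The other lists moved in part or had no gene called. A sum gives most weight to the most abundant genes of its list. Of all genes tested, 4.91% were higher and 2.89% lower for vehicle against naïve. For TD139 against vehicle 16.2% were lower and 17.2% higher. The 5 microglia markers (Csf1r, Cx3cr1, P2ry12, Tmem119 and Aif1) summed to 13.9 to 16.6 CPM in naïve, 52.6 to 63.6 CPM in vehicle-treated and 12.5 to 33.2 CPM in TD139-treated mice, and at an edgeR adjusted p under 0.05 4 of the 5 rose with vehicle against naïve and 4 of the 5 fell with TD139 against vehicle. The 6 markers of leukocytes and myeloid cells in general summed to 8.06 to 10.9, 59.0 to 131 and 6.47 to 40.9 CPM, with 4 of 6 risen and 5 of 6 fallen. The 6 markers of infiltrating monocytes summed to 0.476 to 1.11, 0.608 to 3.78 and 0.514 to 0.765 CPM, with 1 gene tested and 0 called, and the 5 neutrophil markers to at most 0.470 CPM in any mouse. The 5 genes of reactive glia summed to 234 to 333, 938 to 1762 and 160 to 355 CPM, with 3 of 5 risen with vehicle and 5 of 5 fallen with TD139 against vehicle. The 6 Müller glia markers summed to 4551 to 5425, 6875 to 7442 and 4960 to 6484 CPM, with 4 of 6 risen and 2 of 6 fallen in these comparisons. The 6 rod markers summed to 66219 to 75066, 38250 to 53397 and 54575 to 68019 CPM, and the vehicle-treated mice lay below both other groups, with 4 of 6 genes lower with vehicle than in naïve mice and 3 of 6 higher with TD139 than with vehicle. The 6 markers of the pigment epithelium summed to 80.6 to 154 CPM in naïve, 157 to 297 CPM in vehicle-treated and 72.4 to 119 CPM in TD139-treated mice. Of the 5 of them that were tested, 0 were called for vehicle against naïve and 2 were lower with TD139 than with vehicle. The 4 astrocyte markers summed to 39.1 to 57.2, 86.7 to 98.4 and 24.4 to 60.7 CPM, with 1 of 4 higher with vehicle than in naïve mice and 1 of 4 lower with TD139 than with vehicle. The 4 endothelial markers summed to 163 to 243, 312 to 458 and 212 to 443 CPM, with 0 of 4 called and 1 of 4 lower in these comparisons. Kdr alone had 138 to 211, 277 to 428 and 190 to 419 CPM, while Cldn5, Pecam1 and Cdh5 overlapped between vehicle-treated and naïve mice. The part of these shifts in the complement results was not tested, other than by ratios to the microglia markers and to those of leukocytes and myeloid cells.

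Relative to the microglia markers of the same mouse, the C1q genes, C3 and C3ar1 were higher in vehicle-treated mice, but relative to the leukocyte and myeloid markers only C3ar1 of these lay above the naïve mice without overlap. Per 100 counts of the 5 markers, C1qa had 52.7, 59.7 and 63.4 counts in naïve, 159, 111 and 198 counts in vehicle-treated, and 109, 40.8 and 43.4 counts in TD139-treated mice. C3ar1 had 0.811, 3.38 and 2.39 counts in naïve, 12.6, 8.16 and 14.4 counts in vehicle-treated, and 7.64, 2.06 and 0.790 counts in TD139-treated mice. For these 2 genes, and for C1qb and C1qc, the vehicle-treated mice lay above both other groups without overlap. C3 did so as well, with 49.7 to 64.9 counts against 11.9 to 21.5 in naïve mice, and TD139-treated mouse 1 came close to that group with 48.4 counts. It also came close for C1qa, at 109 against 111 counts in vehicle-treated mouse 2, and for C3ar1, at 7.64 against 8.16 counts.

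The higher ratio depended on the marker list. Per 100 counts of the 6 leukocyte and myeloid markers, C1qa had 91.2, 76.4 and 126 counts in naïve, 82.9, 99.0 and 96.7 counts in vehicle-treated, and 88.3, 90.3 and 76.2 counts in TD139-treated mice, and the groups overlapped. The log2 difference of vehicle-treated from naïve mice was -0.0499 for C1qa, 0.15 for C1qb, 0.17 for C1qc and 0.41 for C3 on this scale, all with overlap, against 1.38 for C1qa, 1.58 for C1qb and 1.84 for C3 on that of the microglia markers. For C3ar1 it was 1.18, with 6.57 to 7.27 counts in vehicle-treated against 1.40 to 4.76 counts in naïve mice. For TD139 against vehicle the log2 difference on this scale was -0.13 for C1qa, -0.40 for C1qc and -0.68 for C3, all with overlap, whereas C1qb (-0.42) and C3ar1 (-1.03) lay below vehicle without overlap. On the scale of the microglia markers these differences were -1.40 for C1qa, -1.66 for C1qc, -1.95 for C3, -1.69 for C1qb and -2.30 for C3ar1, all without overlap.

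The ratio of C2 went the other way, with 8.46, 10.1 and 13.8 counts per 100 counts of the microglia markers in naïve, 2.43, 2.79 and 3.35 in vehicle-treated, and 6.75, 7.15 and 11.5 in TD139-treated mice. The vehicle-treated mice were below both other groups without overlap. The level of C2 itself overlapped between the groups, and any gene with an unchanged level would have a lower ratio where the markers are higher. C4b and Cfb overlapped between vehicle-treated and naïve mice on this scale, with 79.9 to 125 against 20.05 to 99.2 counts for C4b and 1.37 to 5.54 against 0.348 to 2.03 counts for Cfb. Of the 42 exact permutation tests of ratios (two-sided), 14 reached p = 0.1, the smallest that 3 against 3 mice allow, and all had an adjusted p of at least 0.3, so none can pass.

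**Figure D4:**
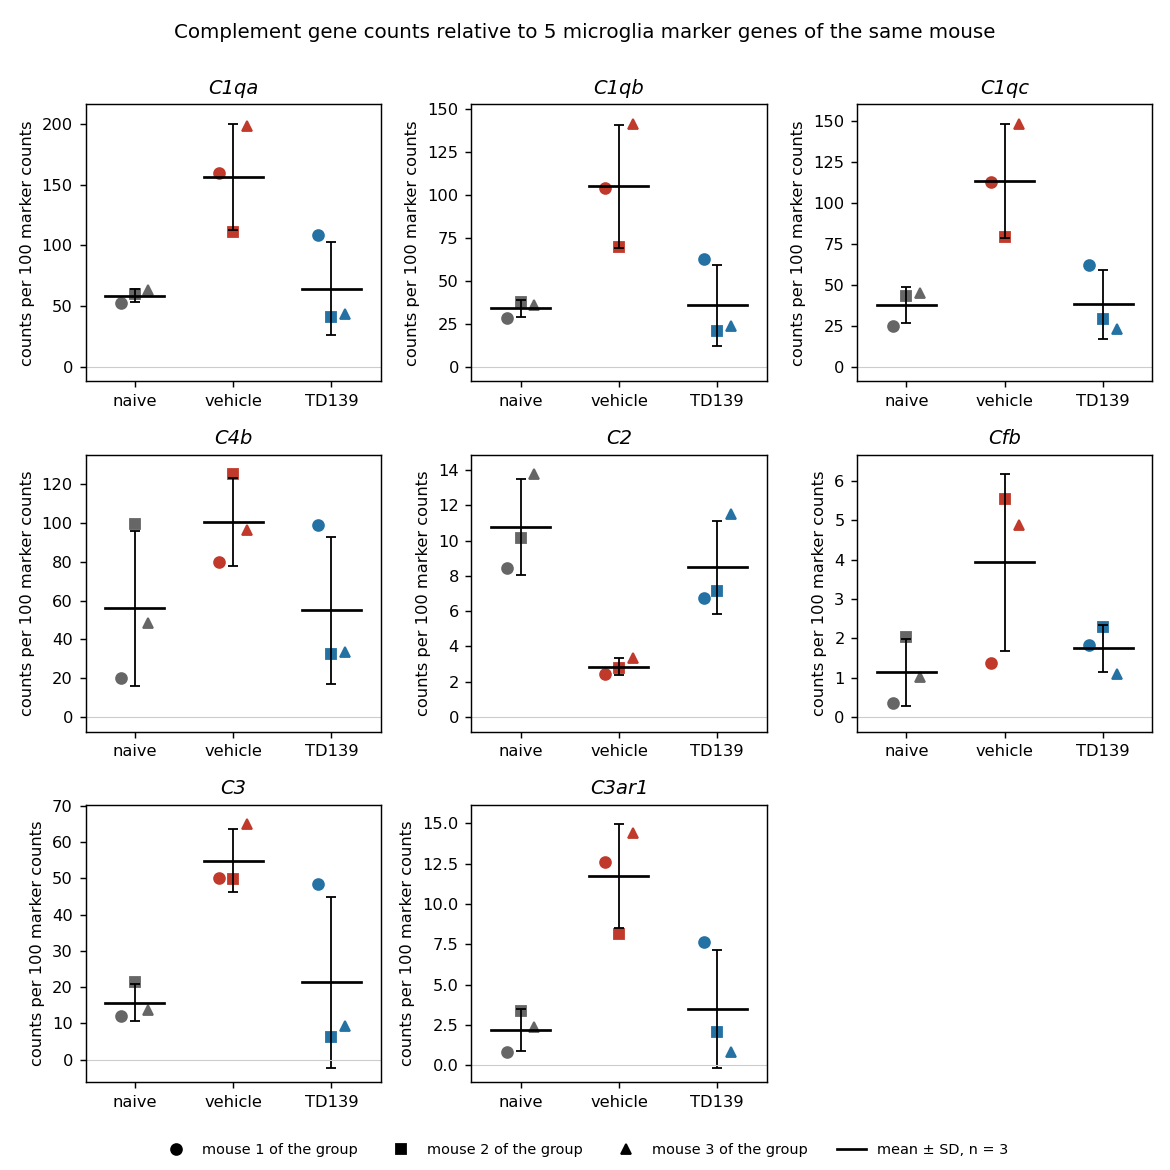
Counts of each of 8 complement genes per 100 counts of 5 microglia markers in the same mouse, on a linear axis for each gene, with symbols for each mouse and bars for the mean ± SD of 3 mice. The C1q genes, C3 and C3ar1 are highest in the vehicle-treated mice, and C2 is lowest there, at 2.43 to 3.35 counts.

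The genes whose log2 levels were most like each complement gene over the 9 mice, among 13087 genes averaging 50 counts or more, were Lcp1, Cyth4 and Laptm5 for C1qa (Pearson r = 0.994 for Lcp1), and Lcp1, Pbxip1 and Apobec1 for C1qb (r = 0.996 for Lcp1). They were Msr1, Csf1 and Cyth4 for C1qc (r = 0.994 for Msr1), and Laptm5, Gbp2 and Ildr2 for C3ar1 (r = 0.987 for Laptm5). Acsf2, Pbxip1 and Piezo1 were most like C3 (r = 0.990 for Acsf2), Gpc4, Gldc and Ptk2b most like C4b (r = 0.985 for Gpc4), and Gbp9, C1qtnf1 and I830012O16Rik most like Cfb (r = 0.956 for Gbp9). For C2 the highest value was lower, with an r of 0.921 for Ntsr1, followed by Astn2 and Golga5. These correlations describe 9 points that share groups and libraries.

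Of 44 further complement genes with a row, 26 were tested. In vehicle-treated mice 7 rose and 0 fell against naïve mice by edgeR, and 4 were lower at an unadjusted p under 0.05. DESeq2 called 10 higher and 3 lower, and limma 12 higher and 3 lower. Against vehicle, 8 fell and 2 rose in TD139-treated mice by edgeR, while DESeq2 called 10 lower and 2 higher, and limma 13 lower and 2 higher. Against naïve mice 0 passed in TD139-treated mice by edgeR, with 1 higher and 1 lower at an unadjusted p under 0.05, while DESeq2 called 1 lower of the 21 to which it gave an adjusted p and limma 3 higher and 3 lower. The share of all genes tested was 4.91% higher and 2.89% lower for vehicle against naïve, and 16.2% lower and 17.2% higher for TD139 against vehicle.

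Among the proteases that C1q and the lectins carry, 1 of 5 tested genes rose with vehicle, C1s, which cleaves C4 and C2, with a log2 fold change of 2.08 ± 0.44 SE (edgeR adjusted p = 0.0249). It fell again by 1.67 ± 0.43 SE on the log2 scale with TD139 against vehicle (adjusted p = 0.0149). Masp2, a lectin pathway protease, was higher with TD139 than with vehicle by 0.50 ± 0.16 SE (adjusted p = 0.0366). C1ra, the partner of C1s, had a log2 fold change of 2.61 ± 0.88 SE with vehicle and did not pass (adjusted p = 0.0972). C1ra and C1s each have a close copy in the mouse genome, and reads shared with it make their counts uncertain. Of the 7 lectin pathway recognition genes 1 was tested and 0 called, and Mbl1, Mbl2, Fcnb and Colec10 were at 0 in all mice. Of the 7 terminal components 1 was tested, C8g, and 0 were called, and C6 and C9 were at 0 in all mice.

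Among the other receptors, 3 of 6 tested genes rose with vehicle and 4 of 6 fell with TD139 against vehicle. Itgam, the alpha chain of complement receptor 3, rose by a log2 fold change of 2.07 ± 0.46 SE (edgeR adjusted p = 0.0269) and then was lower by -1.77 ± 0.45 SE (adjusted p = 0.0147). Cr1l, a regulator and receptor of the Crry type, rose by 0.88 ± 0.20 SE (adjusted p = 0.0294) and was lower by -0.70 ± 0.20 SE (adjusted p = 0.0228). C1qbp, a mitochondrial protein that binds C1q, was lower by -0.32 ± 0.11 SE with TD139 (adjusted p = 0.0436). Itgb2, the beta chain of complement receptor 3, was the remaining called gene and is named although 3 others had higher counts, with log2 fold changes of 2.55 ± 0.53 SE and -2.48 ± 0.53 SE.

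Among the regulators, 3 of 11 tested genes rose with vehicle, and 3 fell and 1 rose with TD139 against vehicle. Serping1, the C1 inhibitor, rose by a log2 fold change of 3.55 ± 0.81 SE (edgeR adjusted p = 0.0493) and was lower by -2.99 ± 0.79 SE with TD139 (adjusted p = 0.0291). Clu, clusterin, an inhibitor of the terminal complex, rose by 1.43 ± 0.30 SE (adjusted p = 0.0286) and was lower by -1.71 ± 0.30 SE (adjusted p = 0.00651). Csmd1, a membrane regulator, was higher with TD139 than with vehicle by 1.21 ± 0.25 SE (adjusted p = 0.00733). Cfi, factor I, which cleaves C3b and C4b, was the other called regulator and is also named outside the limit of 3 genes a list, with 2.24 ± 0.35 SE and -2.12 ± 0.35 SE. Activating components, receptors and regulators were therefore all among the genes that rose with vehicle and were lower with TD139.

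**Figure D5:**
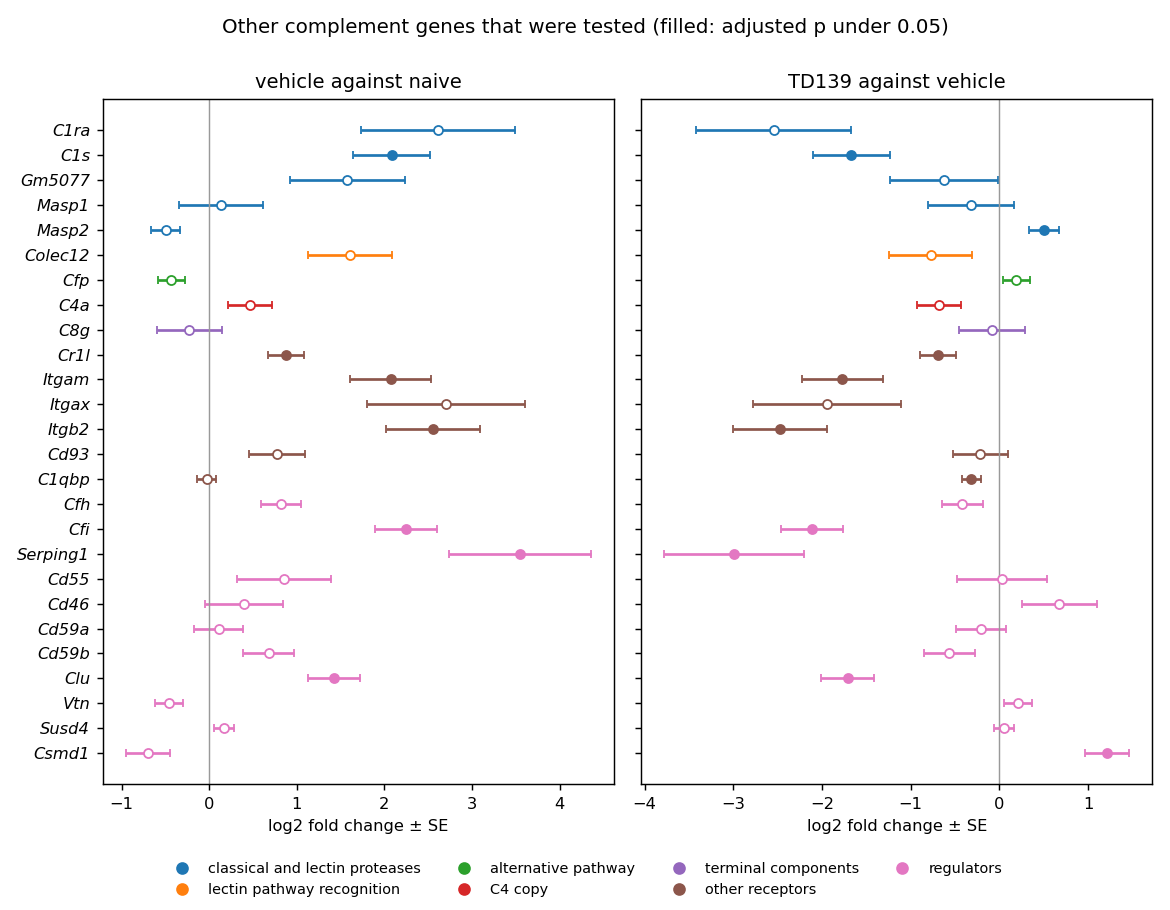
Log2 fold change ± SE of the 26 tested further complement genes for vehicle against naïve (left) and TD139 against vehicle (right), coloured by list, with filled symbols for an edgeR adjusted p under 0.05. Serping1 has the largest shift on both sides, at 3.55 and -2.99.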

How the data were processed

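RNA of whole retinas of 9 mice was sequenced from stranded mRNA libraries. The authors deposited whole-number counts of reads per gene symbol for each of 2 runs of each mouse, made with BaseSpace RNA Express against mm10 per the labels' processing notes and the study's methods. The values are unscaled counts. The strand setting of the counting is not given in the sources used here. The 2 runs of a mouse were summed, since they differed little (chi-square per degree of freedom 1.63 to 1.80, against 16.7 to 73.1 between mice of a group), and each mouse was 1 replicate. Reads with no feature (16.5 to 22.8%) and ambiguous reads (0.303 to 0.471%) were left out.

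All 3 groups were fitted together in edgeR 4.0.16 (R 4.3.3) using filterByExpr, TMM scaling and a robust quasi-likelihood F test. P-values were adjusted by Benjamini-Hochberg over the 15196 tested genes. Genes were called at an adjusted p under 0.05. SE is the log2 fold change divided by the root of F, and approximate 95% intervals use the SE and normal quantiles. Floors cover counting error only, whereas the intervals of fold changes rest on the spread between mice. Alternatives used DESeq2 1.42.0 and limma 3.58.1 (voom with sample quality weights), other scalings and filters, a replicate block, single runs, 2 groups only, and each mouse left out. Ratios were compared by exact permutation tests on log2 values, with 0.5 counts added.

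Of the symbols, 98.4% matched GENCODE M21 on GRCm38, 21777 by symbol and 1277 by an older one, for positions and lengths. Promoter sequences are from RefSeq on GRCm38.p6. The set of promoter sequences used here held no entry for C1qa, C2, C4b and Cfb. All 9 genes are named, and of the other complement lists at most 3 called genes a list with the highest mean count, apart from those said to be added. The members and lists were chosen with earlier results of these data known. One gene of the microglia marker list is not reported here and was left out of the marker sum and of the ratios to it.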

Additional observations from a re-analysis of the deposited data

How the results depend on the processing

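Depth limits C5ar1 (0 to 14 counts a mouse) and Cfb in naïve mice (1 to 7 counts), and 3 mice a group limit every test. The direction of C1qa, C1qb, C1qc, C4b, Cfb, C3 and C3ar1 stayed the same for vehicle against naïve and for TD139 against vehicle under every alternative that tested them, but the number called did not. Of the 8 tested genes, 2 were called higher for vehicle against naïve. DESeq2, which gave C3 no p in any comparison, called 6 of the other 7, limma voom 7, a length and GC offset 5, a fit of only the 2 groups 7, and library size alone, no filter on low counts and run 1 alone 1 each. Leaving out a mouse gave 0 to 7. It was 0 when any 1 naïve mouse or vehicle-treated mouse 3 was left out, 1 without vehicle-treated mouse 1 and 7 without TD139-treated mouse 1. Over all genes the share higher was 0.402%, 0.00647% and 0.907% without naïve mouse 1, 2 and 3. It was 0.423% without vehicle-treated mouse 3, 1.42% without vehicle-treated mouse 1 and 7.56% without TD139-treated mouse 1. Few genes of any kind were called in the fits that called 0 of the 8. Of the 8, 3 were called lower for TD139 against vehicle. DESeq2 (of 7) and RLE size factors called 5, limma voom 7, and a length and GC offset and a fit of only the 2 groups 1 each. The shares of all genes called lower were 18.7% with DESeq2, 16.2% with RLE size factors and 22.9% with limma voom. They were 8.80% with the offset and 16.3% with 2 groups, against 16.2% in the main fit. Leaving out a mouse gave 0 to 7. It was 0 without vehicle-treated mouse 3 or TD139-treated mouse 2 or 3, 1 when any 1 naïve mouse or vehicle-treated mouse 1 was left out, and 7 without TD139-treated mouse 1. Over all genes the share lower was 8.37% without vehicle-treated mouse 3, and 4.91% and 5.62% without TD139-treated mouse 2 and 3. It was 16.6%, 13.6% and 17.1% without naïve mouse 1, 2 and 3, 14.1% without vehicle-treated mouse 1 and 19.0% without TD139-treated mouse 1. The fits without a mouse had fewer samples, and the cause of the changes in number was not tested.

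With a replicate block 1 gene was called in each of these comparisons, Cfb in both. The block called 3.68% of all genes higher for vehicle against naïve and 15.4% lower for TD139 against vehicle. The labels give no pairing of the mice by replicate number. Same-numbered mice had correlations of their deviations from -0.26 to 0.28. These were not compared with differently numbered mice and cannot decide whether the mice were paired. For TD139 against naïve, 0 genes were called higher in all alternatives, and 0 lower except without TD139-treated mouse 1, where it was 1 (C3), a range of 0 to 1. That mouse was singled out by these genes, so the call is no independent support. The direction of this comparison changed with limma voom, at log2 fold changes of -0.26 for C1qa, -0.44 for C1qb, -0.48 for C1qc, -0.89 for C3, -0.98 for C4b, -0.0366 for Cfb and -0.93 for C3ar1. It changed also without TD139-treated mouse 1, for 6 of these 7, and over all fits that left out a mouse the values ran from -0.68 to 1.22 for C1qa, -0.81 to 1.20 for C1qb, -0.70 to 1.11 for C1qc, -1.23 to 1.86 for C3, -0.90 to 1.33 for C4b and -0.75 to 2.15 for C3ar1, each lowest without TD139-treated mouse 1. Cfb kept its direction in these fits (0.54 to 1.84), with 0.54 without that mouse. C2, whose values are close to 0, changed sign for vehicle against naïve with limma voom (0.0575), library size alone (0.0634), run 2 alone (0.27), and when a mouse was left out (-0.28 to 0.23). It did so for TD139 against vehicle with a length and GC offset (0.0778) and when a mouse was left out (-0.42 to 0.18), and for TD139 against naïve with run 2 alone (0.25) and when a mouse was left out (-0.44 to 0.16).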
